A study of Mus musculus with 12 samples.

Results

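Apoe, Clu and 8 further genes of lipoprotein transport, endocytosis and efflux that are tied to amyloid beta clearance or to Alzheimer risk were followed through a mouse brain RNA-seq study. The 10 genes, chosen by name, are Apoe, Clu, Abca1, Abca7, Lrp1, Sorl1, Picalm, Bin1, Cd2ap and Abcb1a. All of them were present among the 14881 genes of the count table, and none was lost to a filter on low counts. The 12 male mice were 22 to 26 months old and are labelled as APPswe, a line with a transgene for human amyloid precursor protein with the Swedish mutation. Each had received 5 µL of an AAV1 vector into the cisterna magna, followed by weekly antibody injections of 40 mg/kg into the peritoneum. Of the 4 groups of 3, numbers 10 to 12 got mVEGF-C+mAdu, numbers 7 to 9 got mVEGF-C+mIgG, numbers 4 to 6 got eGFP+mAdu and numbers 1 to 3 got eGFP+mIgG. mVEGF-C is mouse vascular endothelial growth factor C, which drives growth of lymphatic vessels, and eGFP is the fluorescent control cargo. mAdu is mAducanumab, an antibody against aggregated amyloid beta, and mIgG is the control immunoglobulin. The series title puts the question as whether lymphatic drainage of the meninges modifies anti-amyloid immunotherapy. All groups share the APPswe label, a vector under the CMV promoter, which is not restricted to a cell type, and an antibody, so no wild-type or uninjected mouse stands beside them.

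Apolipoprotein E (Apoe) and clusterin (Clu, apolipoprotein J) are the main protein parts of the lipoprotein particles that astrocytes release, and both bind amyloid beta. Abca1 loads lipid onto such particles, and Abca7 is a related lipid transporter. Lrp1 is a large endocytic receptor for apolipoprotein E and amyloid beta, and Sorl1 is a sorting receptor that routes amyloid precursor protein away from the endosomes where it is cleaved. Picalm and Bin1 act at the membrane during clathrin-mediated endocytosis, and Cd2ap links membrane traffic to actin. Abcb1a encodes P-glycoprotein, the efflux pump of brain capillaries. APOE, CLU, ABCA1, ABCA7, SORL1, PICALM, BIN1 and CD2AP are known as Alzheimer risk genes in humans. Apoe in the brain comes mainly from astrocytes, and microglia near plaques are known to produce more of it.

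The start regions of Apoe and Abca1 are shown because both genes are known targets of the oxysterol receptors LXR. Apoe, like Clu, was lower in all mVEGF-C+mAdu mice than in any other mouse, and Abca1 was not. The 250 bases before each RefSeq start are written 5′ to 3′ on the strand of the gene (build GRCm38.p6, minus strand for both), at chr7:19699189-19699438 for Apoe and chr4:53159896-53160145 for Abca1. Capitals mark matches to an LXR-like direct repeat (GGTNA and GGTCA with 5 bases between them) or to a TATA box (TATAAA), searched on both strands.
Apoe: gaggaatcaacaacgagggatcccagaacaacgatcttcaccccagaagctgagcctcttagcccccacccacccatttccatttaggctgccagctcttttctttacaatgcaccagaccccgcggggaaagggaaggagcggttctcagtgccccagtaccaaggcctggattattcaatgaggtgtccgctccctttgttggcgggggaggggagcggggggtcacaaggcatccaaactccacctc
Abca1: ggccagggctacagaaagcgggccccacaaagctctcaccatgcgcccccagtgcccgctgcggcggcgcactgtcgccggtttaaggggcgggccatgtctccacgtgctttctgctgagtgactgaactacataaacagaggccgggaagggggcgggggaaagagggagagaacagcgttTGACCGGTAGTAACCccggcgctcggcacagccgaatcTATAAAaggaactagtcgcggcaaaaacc
The Abca1 window held the repeat, on the opposite strand at 67 to 53 bases before the start, and a TATA box at 29 to 24 bases before it. Neither motif was found in the Apoe window shown. Sequence outside the start windows was not searched, and the part of either motif in the levels was not tested. RefSeq windows, which run from 250 bases before to 50 bases after a start, were at hand for 8 of the 10 genes, and Clu and Bin1 had no entry. Among those 8, the repeat was found in the window of 1 gene, Abca1, and it occurs in 68 of all 32851 mouse windows (0.207%). TATAAA occurs in 13.6% of windows, and among the 8 genes it was found for Abca1 and in another start window of Apoe.

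Library totals ran from 23213612 to 29295266 counted reads. The sources describe the tissue as whole right hippocampus in one place and as meninges in another. Over the 12 libraries the median of 10 hippocampal neuron markers lay between 93.2 and 113 scaled counts per 1000000 reads (CPM), while that of 10 meningeal fibroblast markers lay between 4.05 and 8.94 CPM and that of 7 choroid plexus markers between 1.27 and 2.33 CPM. The libraries of mice 3, 6, 9 and 12 lay between the other libraries of their own group for 72.4% to 77.6% of the genes that varied beyond counting noise, where an equal share is 33.3%, against 8.77% to 15.6% for the other 8. The description assigns 1 mouse to each library, and were RNA shared between libraries, the p-values below would come out too low. The amyloid precursor gene App stood apart in a pair of libraries, with 1342 CPM (mouse 5) and 3716 CPM (mouse 6), while the remaining 10 ranged between 4721 and 5507 CPM. Whether mice 5 and 6 carry the transgene was not tested. Both belong to eGFP+mAdu, so comparisons with that group are also given without them, where mouse 4 then stands alone for eGFP+mAdu and is assumed to vary like the other groups. An identifier without a symbol took 2.44% to 8.59% of the reads of mice 1 to 3 and at most 0.105% in the other mice, so levels are given after scaling by the trimmed mean of M values (TMM). A change is said to pass where its p, adjusted over all genes, is under 0.05.

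Per length of transcript, Apoe was far the most abundant of the 10 genes. Over the union of its exons it averaged 657 ± 36.7 RPKM (CPM per 1000 bases, SD over 12 libraries), a level above that of 99.9% of all genes. Clu followed with 199 ± 3.67 RPKM. Bin1 averaged 57.8, Sorl1 31.6, Lrp1 22.3 and Picalm 14.4 RPKM, with ranges over the libraries that did not overlap between neighbours in this order. Abca1 lay at 6.31 RPKM, above Abca7 at 3.47 and Abcb1a at 3.25 RPKM, whose ranges overlapped. Cd2ap had the lowest level, 1.38 RPKM. With the longest annotated transcript as length, Picalm (27.6 RPKM) came level with Lrp1 (26.5 RPKM), and Cd2ap (3.90 RPKM) came above Abca7 (3.50 RPKM) and Abcb1a (3.56 RPKM), so those neighbours have no settled order.

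**Figure D1:**
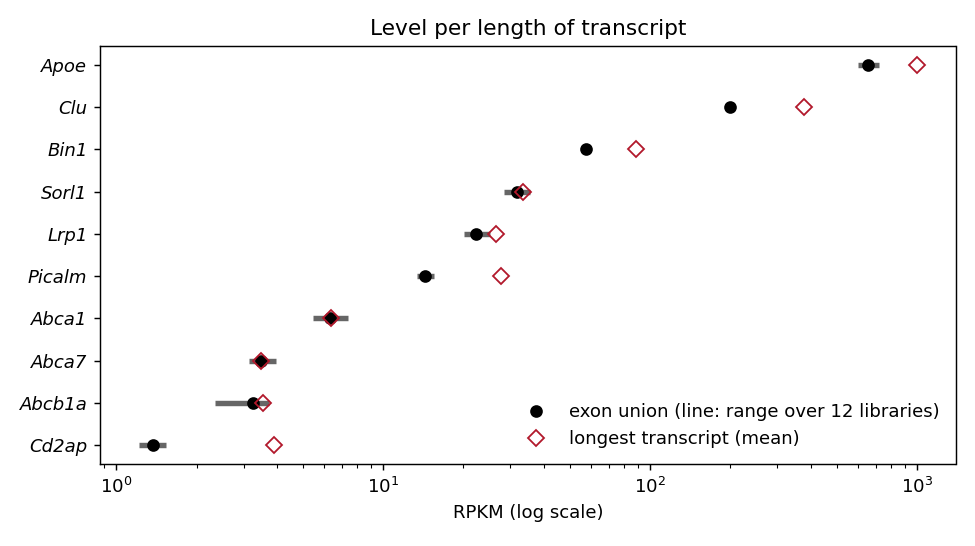
Mean level of each gene over 12 libraries in RPKM (log scale), with the union of exons (filled points, line for the range over libraries) or the longest transcript (open diamonds) as the length. Apoe and Clu lead with either length, while the places of Picalm and Cd2ap depend on it.

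Apoe (ENSMUSG00000002985, chromosome 7, 19696109 to 19699188 of GRCm38, minus strand) had a lower level in every mouse that got both treatments than in any other mouse, though the difference did not pass. Its level was 1281, 1314 and 1286 CPM in mVEGF-C+mAdu. It was 1433, 1412 and 1451 CPM under mVEGF-C+mIgG, 1465, 1470 and 1403 CPM in eGFP+mAdu, and 1395, 1543 and 1398 CPM in eGFP+mIgG. The highest of the doubly treated mice, at 1314 CPM, thus lay under the lowest of the other 9, at 1395 CPM. Group means were 1294 ± 17.6 CPM for mVEGF-C+mAdu, 1432 ± 19.4 CPM for mVEGF-C+mIgG, 1446 ± 37.3 CPM for eGFP+mAdu and 1445 ± 84.9 CPM for eGFP+mIgG (SD, n = 3). Against eGFP+mIgG the combined group stood at 0.895 times the level, with a 95% confidence interval of 0.841 to 0.953, a log2 change of -0.16 (SE 0.042). That did not pass (adjusted p = 0.0582, edgeR quasi-likelihood F test with Benjamini-Hochberg correction). Against mVEGF-C+mIgG the log2 change was -0.15 (SE 0.042, adjusted p = 0.157) and against eGFP+mAdu -0.16 (SE 0.042, adjusted p = 0.124) by the same edgeR test. Against eGFP+mIgG, the single treatments had log2 changes of -0.01 (95% interval -0.10 to 0.08) for mVEGF-C+mIgG and 0.00 (-0.09 to 0.09) for eGFP+mAdu. In the interaction, the mAdu effect within mVEGF-C minus that within eGFP, the log2 value was -0.15 (95% interval -0.27 to -0.02), which did not pass (adjusted p = 0.697, edgeR quasi-likelihood F test). In tissue RNA, fewer cells of a type and less RNA per cell cannot be told apart.

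How Apoe was called turned on the test and on single libraries. The combined treatment against eGFP+mIgG passed with the DESeq2 Wald test (adjusted p = 0.0129), with limma-voom and quality weights (adjusted p = 0.00419), with a stricter filter on low counts (adjusted p = 0.0459) and in a fit of only these 2 groups (adjusted p = 0.0486). It also passed without mouse 7 (adjusted p = 0.0468) or without mouse 8 (adjusted p = 0.0433), both of mVEGF-C+mIgG, in the edgeR test. In the other single omissions it did not pass. Without mouse 1, 3, 10 or 12, the smallest edgeR adjusted p of any change of the 10 genes was 0.132, 0.11, 0.167 and 0.18. Over all single omissions the log2 change ran between -0.18 without mouse 1 and -0.11 without mouse 2, the eGFP+mIgG mouse with the highest Apoe. With library totals in place of TMM it was -0.08 (adjusted p = 0.294, edgeR quasi-likelihood F test), a setting that moves the median of all genes by 0.08. Without mice 3, 6, 9 and 12 it was -0.18 (adjusted p = 0.56 by the same edgeR test), and without mice 5 and 6 it was -0.16 (adjusted p = 0.079), while the change against eGFP+mAdu, then mouse 4 alone, was -0.18 (adjusted p = 0.197).

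Clu (ENSMUSG00000022037, chromosome 14, 65968483 to 65981547, plus strand) was also lowest in the doubly treated mice, by a small margin. Its level was 658, 670 and 674 CPM in mVEGF-C+mAdu. It was 698, 677 and 692 CPM under mVEGF-C+mIgG, 676, 679 and 684 CPM in eGFP+mAdu, and 695, 687 and 700.2 CPM in eGFP+mIgG. The highest of the 3 doubly treated mice, at 674 CPM, lay just under the lowest of the other 9, at 675.5 CPM. That gap is smaller than the counting error of Clu in a single library, which was 0.701% to 0.823%. The log2 change against eGFP+mIgG was -0.06 (SE 0.031), or 0.962 times with a 95% interval of 0.918 to 1.01, and did not pass (adjusted p = 0.327, edgeR quasi-likelihood F test). Clu was the steadiest of the 10 genes, with a coefficient of variation of 1.85% over all 12 libraries. With library totals in place of TMM, this change turned to 0.02. Of all genes, 2.18% lay below the other 9 libraries in all 3 doubly treated mice and 3.15% above them, and Apoe and Clu were the 2 of the 10 genes that did so, both below.

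**Figure D2:**
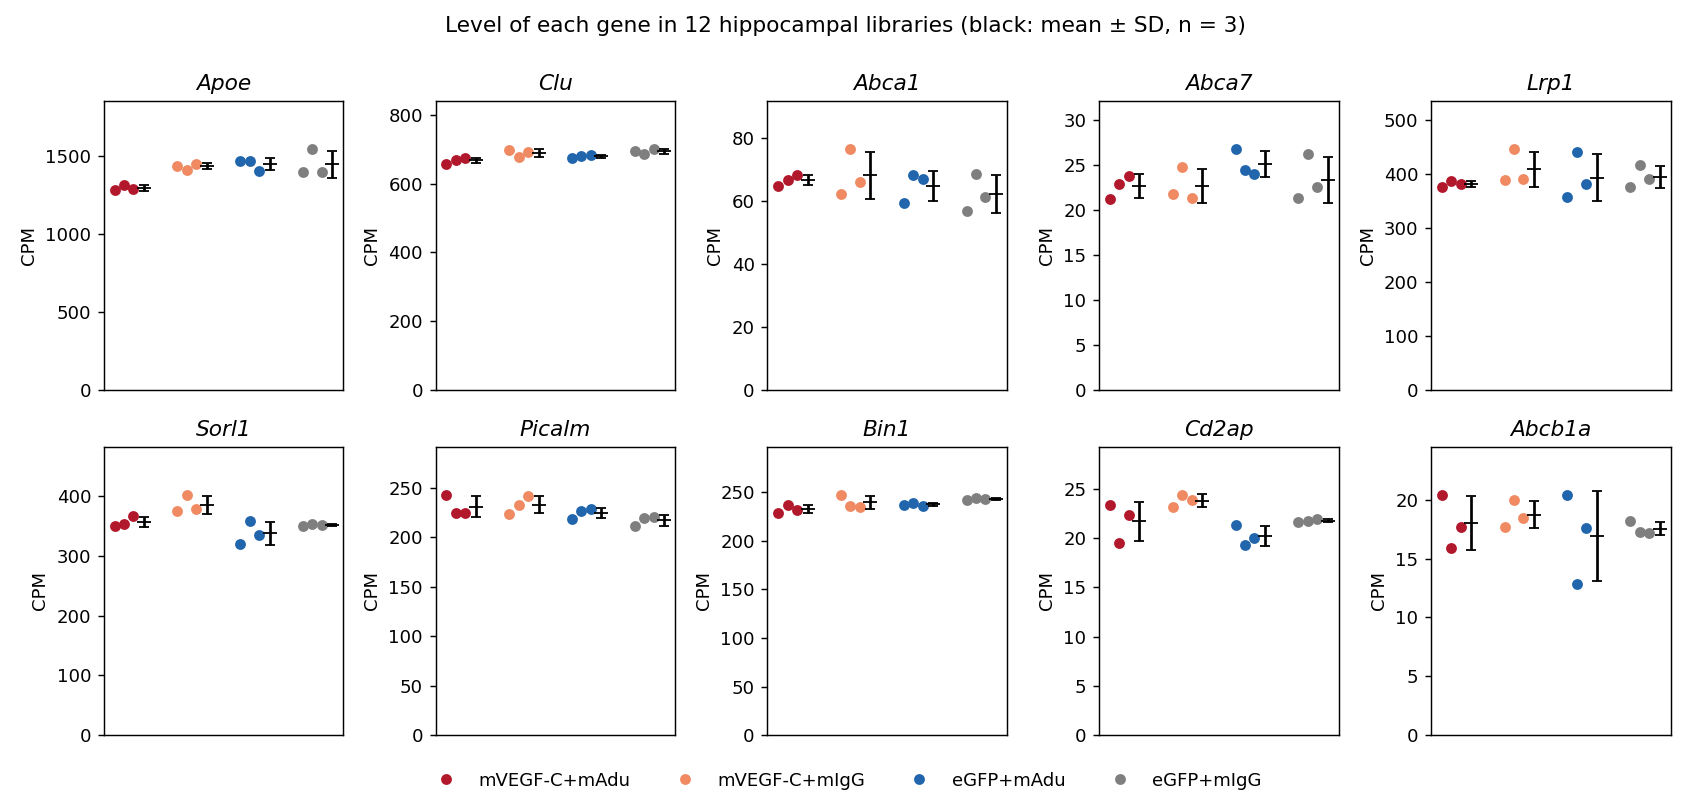
Level of each gene in CPM (axes start at 0) for the 3 mice of each group, with mean ± SD in black. Apoe is the clearest separation, with doubly treated mice between 1281 and 1314 CPM and all other mice at 1395 CPM or more, while most other genes overlap between groups.

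The lipid transporters did not share the order of Apoe. Abca1 (ENSMUSG00000015243, chromosome 4, 53030787 to 53159895) had 64.8, 66.6 and 68.1 CPM in mVEGF-C+mAdu, 62.0, 76.3 and 65.9 CPM under mVEGF-C+mIgG, 59.3, 68.0 and 66.9 CPM in eGFP+mAdu, and 56.8, 68.4 and 61.1 CPM in eGFP+mIgG. Each of the 4 groups overlapped with the others, and the highest value, in mouse 8, was 1.34 times the lowest, in mouse 1. The log2 change of the combined group against eGFP+mIgG was 0.10 (95% interval -0.06 to 0.26), and that of mVEGF-C+mIgG against eGFP+mIgG was 0.14 (-0.03 to 0.30). Abca7 (ENSMUSG00000035722, chromosome 10, 79996494 to 80015572) had 21.2, 22.9 and 23.8 CPM in mVEGF-C+mAdu, 21.8, 24.8 and 21.3 CPM under mVEGF-C+mIgG, 26.8, 24.5 and 24.1 CPM in eGFP+mAdu, and 21.4, 26.3 and 22.5 CPM in eGFP+mIgG. The doubly treated mice were all below the eGFP+mAdu mice but overlapped with both mIgG groups. That difference was -0.15 in log2 (SE 0.081, adjusted p = 0.405, edgeR quasi-likelihood F test), and -0.24 without mice 5 and 6 (adjusted p = 0.348), a value that rests on mouse 4 alone, which had the highest Abca7 of the 12.

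Both receptors had their highest group mean in mVEGF-C+mIgG. Lrp1 (ENSMUSG00000040249, chromosome 10, 127538161 to 127621148) had 376, 387 and 382 CPM in mVEGF-C+mAdu, 390, 447 and 391 CPM under mVEGF-C+mIgG, 357, 441 and 381 CPM in eGFP+mAdu, and 377, 417 and 391 CPM in eGFP+mIgG. The 3 high values came from mice 8, 5 and 2, 1 in each group other than mVEGF-C+mAdu. Its log2 change in mVEGF-C+mAdu against mVEGF-C+mIgG was -0.10 (95% interval -0.25 to 0.04). Sorl1 (ENSMUSG00000049313, chromosome 9, 41964720 to 42124297) had 351, 353 and 366 CPM in mVEGF-C+mAdu, 375, 403 and 378 CPM under mVEGF-C+mIgG, 321, 359 and 335 CPM in eGFP+mAdu, and 349.9, 353 and 351 CPM in eGFP+mIgG. The mVEGF-C+mIgG mice were the 3 highest of the 12. Against eGFP+mIgG their log2 change was 0.13 (SE 0.043; 1.10 times, 95% interval 1.03 to 1.17), which did not pass (adjusted p = 0.545, edgeR quasi-likelihood F test). Averaged over both antibodies, mVEGF-C against eGFP gave 0.11 (SE 0.030, adjusted p = 0.123 by the same test), and this passed without mouse 5 (log2 0.13, adjusted p = 0.0432). Within mVEGF-C, the log2 difference of mAdu against mIgG was -0.11 (95% interval -0.20 to -0.02). Of the exonic bases of Sorl1, 1.63% are shared with the opposite-strand gene Gm16214, and whether counting used the strand is not given in the sources used here.

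Group means of the endocytic genes lay close together. Picalm (ENSMUSG00000039361, chromosome 7, 90130213 to 90213465) had 243, 225 and 225 CPM in mVEGF-C+mAdu, 224, 233 and 242 CPM under mVEGF-C+mIgG, 219, 227 and 229 CPM in eGFP+mAdu, and 211, 219 and 221 CPM in eGFP+mIgG. The mice of both mVEGF-C groups lay above all eGFP+mIgG mice, while they overlapped with eGFP+mAdu. The log2 change of mVEGF-C+mIgG against eGFP+mIgG was 0.10 (95% interval 0.01 to 0.19), and that of mVEGF-C+mAdu against eGFP+mIgG was 0.09 (0.00 to 0.18). Neither passed in the main test, but with library totals in place of TMM the second was 0.17 (adjusted p = 0.0385, edgeR quasi-likelihood F test).

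Bin1 (ENSMUSG00000024381, chromosome 18, 32377230 to 32435737) had 228, 236 and 232 CPM in mVEGF-C+mAdu, 247, 236 and 235 CPM under mVEGF-C+mIgG, 237, 239 and 236 CPM in eGFP+mAdu, and 242, 244 and 243 CPM in eGFP+mIgG. The eGFP+mIgG mice lay above both mAdu groups, and the widest interval of a log2 difference between groups reached only -0.14. Of its exonic bases, 6.22% are shared with A830052D11Rik on the opposite strand. Cd2ap (ENSMUSG00000061665, chromosome 17, 42792951 to 42876665) had 23.3, 19.5 and 22.3 CPM in mVEGF-C+mAdu, 23.1, 24.4 and 23.9 CPM under mVEGF-C+mIgG, 21.3, 19.3 and 20.0 CPM in eGFP+mAdu, and 21.6, 21.7 and 22.0 CPM in eGFP+mIgG. The mVEGF-C+mIgG mice lay above both eGFP groups, and the eGFP+mAdu mice below eGFP+mIgG. The log2 change of mAdu against mIgG was -0.13 within mVEGF-C (95% interval -0.27 to 0.01) and -0.11 within eGFP (-0.25 to 0.03), and averaged over vectors -0.12 (SE 0.047, adjusted p = 0.228, edgeR quasi-likelihood F test). Cd2ap and the mean log2 deviation of 10 brain endothelial markers had a Pearson r of 0.8 over the 12 libraries. The part of capillary content in the Cd2ap values was not tested.

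Abcb1a (ENSMUSG00000040584, chromosome 5, 8660077 to 8748575) varied most between mice of a group. It had 20.4, 15.9 and 17.7 CPM in mVEGF-C+mAdu, 17.7, 20.0 and 18.5 CPM under mVEGF-C+mIgG, 20.4, 12.9 and 17.6 CPM in eGFP+mAdu, and 18.2, 17.2 and 17.2 CPM in eGFP+mIgG. All groups overlapped, and the coefficient of variation reached 22.5% in eGFP+mAdu, where counting alone gives 4.68%. The intervals of its log2 differences between groups reached -0.32 on one side and 0.36 on the other. Changes up to these bounds were thus not excluded in the comparisons concerned, and the smallest detectable change was not tested. Mouse 5, the lowest for Abcb1a, also had the lowest level of brain endothelial markers, -0.18 in log2 from the mean of the 12 libraries, and mice 11 and 10 had -0.14 and 0.14. The 10 endothelial markers summed to 127 to 155 CPM in mVEGF-C+mAdu, 141.5 to 147 CPM under mVEGF-C+mIgG, 123 to 151 CPM in eGFP+mAdu and 134 to 138 CPM in eGFP+mIgG. Among them Vwf, the clotting factor stored by endothelium, fell to 9.86 ± 0.825 CPM in mVEGF-C+mAdu and 9.52 ± 1.13 CPM in eGFP+mAdu, against 16.1 ± 0.503 CPM in eGFP+mIgG (SD, n = 3; adjusted p = 0.00343 and 0.00257, edgeR quasi-likelihood F test). The 6 mIgG mice of both vectors together averaged 13.6 ± 2.84 CPM, so Vwf was also lower in mVEGF-C+mIgG than in eGFP+mIgG. The log2 changes of the mAdu groups against eGFP+mIgG were -0.71 and -0.75. Without mice 3, 6, 9 and 12 they were -0.80 and -0.70, with 2 mice a group, and missed the threshold (adjusted p = 0.251 and 0.424 by the same edgeR test). Without mice 5 and 6 the second was -0.58, with mouse 4 alone in eGFP+mAdu. Vwf was the 1 of the 10 endothelial markers that passed in these comparisons (2.18% and 0.0336% of all genes). In mVEGF-C+mAdu against eGFP+mIgG 3 of the 10 had an unadjusted p under 0.05 (20.4% of all genes), and in eGFP+mAdu against eGFP+mIgG 2 did (9.21%). For mAdu against mIgG within mVEGF-C, 0 of the 10 did (12.7%), Vwf included. The part of capillary content in Abcb1a was not tested. Its counts are uncertain, since the paralog Abcb1b is nearly identical in places and 10.09% of its exonic bases overlap Gm42686 on the opposite strand.

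None of the 80 tested changes of the 10 genes, in 8 contrasts, passed after adjustment over all genes. In mVEGF-C+mAdu against eGFP+mIgG 0 of 10 passed, beside 2.18% of all genes. There, 1 had an unadjusted p under 0.05 (20.4% of all genes), and the groups did not overlap for 4 (27.2%), namely Apoe, Clu and Bin1 lower (13.4% of all genes in that direction) and Picalm higher (13.9%). With library totals in place of TMM the log2 values of Clu and Bin1 turned to 0.02 and 0.01. The DESeq2 Wald test (2.93% of all genes) and limma-voom (17.9%) called 1 each, Apoe. In mVEGF-C+mAdu against mVEGF-C+mIgG 0 of 10 passed (0.208% of all genes), 2 had an unadjusted p under 0.05 (12.7%), and 4 did not overlap (16.5%), namely Apoe, Clu, Lrp1 and Sorl1, all lower (8.12% of all genes in that direction). All 10 log2 values were below 0 there, with a median of -0.05, beside 0.00 over all genes. In this comparison the DESeq2 Wald test called 0 of the 10 (0.847% of all genes) and limma-voom 1 (8.29%).

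The vector was compared within each antibody. In mVEGF-C+mAdu against eGFP+mAdu 0 of 10 passed (0.047% of all genes), 1 had an unadjusted p under 0.05 (14.3%) and 3 did not overlap (21.7%), namely Apoe, Clu and Abca7, all lower (10.2% of all genes in that direction). DESeq2 called 1 (0.699% of all genes) and limma-voom 1 (6.52%), in both cases Apoe. In mVEGF-C+mIgG against eGFP+mIgG 0 of 10 passed (0.0403%), 2 had an unadjusted p under 0.05 (7.91%) and 3 did not overlap (12.4%), namely Sorl1, Picalm and Cd2ap, all higher (6.38% of all genes in that direction). There DESeq2 called 0 (0.134% of all genes) and limma-voom 2 (6.3%), Sorl1 and Picalm. The median log2 value of the 10 genes was 0.01 in the first of these comparisons and 0.07 in the second, beside 0.00 over all genes in each.

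The antibody was also compared under the control vector. In eGFP+mAdu against eGFP+mIgG 0 of 10 passed (0.0336% of all genes), 0 had an unadjusted p under 0.05 (9.21%) and 3 did not overlap (15.4%), namely Clu, Bin1 and Cd2ap, all lower (7.78% of all genes in that direction), and both DESeq2 (0.269%) and limma-voom (3.41%) called 0. Without mice 5 and 6 the 10 log2 values of this comparison lay between -0.15 (Lrp1) and 0.22 (Abcb1a), with eGFP+mAdu then being mouse 4 alone.

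In the interaction 0 of 10 passed (0.0134% of all genes), 1 had an unadjusted p under 0.05 (6.82%), all 10 log2 values were below 0 with a median of -0.06, and DESeq2 called 0 (0.0538%) and limma-voom 1 (1.48%), Apoe. Averaged over vectors, mAdu against mIgG had 0 of 10 passing (0.571%), 3 with an unadjusted p under 0.05 (15.5%) and 0 without overlap (0.921%), with 0 calls by DESeq2 (1.46%) and 2 by limma-voom (11.3%), Apoe and Cd2ap. Averaged over antibodies, mVEGF-C against eGFP had 0 of 10 passing (0.39%), 4 with an unadjusted p under 0.05 (16%) and 0 without overlap (1.01%), with 0 calls by DESeq2 (0.995%) and 2 by limma-voom (12%), Sorl1 and Cd2ap. These contrasts share groups, so their counts are not separate evidence. The shares of the 10 genes with no overlap, 3 or 4 of 10, stand beside 12.4% to 27.2% of all genes in the same comparisons, and with 10 genes no difference from that background was tested.

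**Figure D3:**
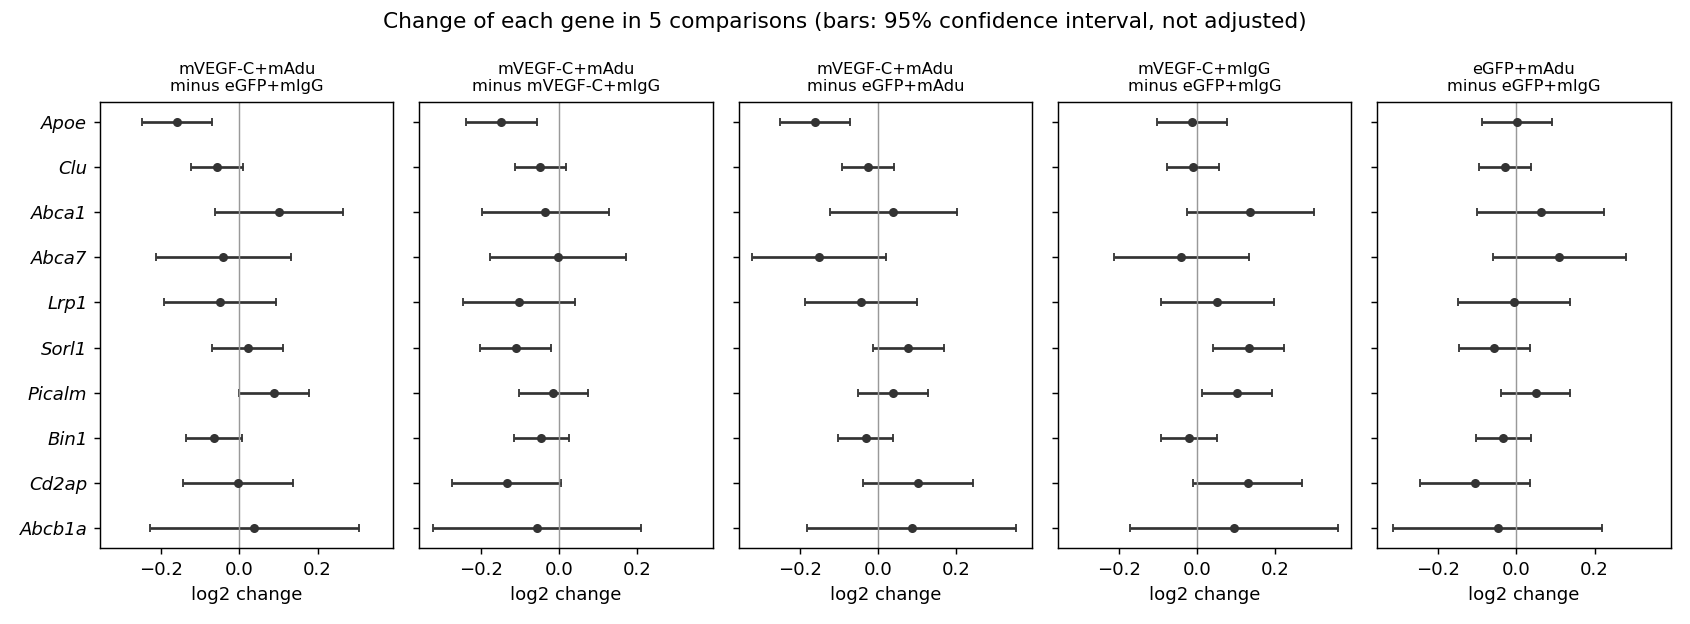
Log2 change of each gene in 5 comparisons, with 95% confidence intervals that are not adjusted for the number of tests. Apoe lies below 0 with its whole interval in the 3 comparisons of mVEGF-C+mAdu, at -0.16, -0.15 and -0.16, and near 0 in the other 2.

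Mouse by mouse, several of the genes were high or low in the same libraries. Mouse 8 of mVEGF-C+mIgG had the highest Abca1, Lrp1, Sorl1 and Cd2ap of the 12, and mouse 5 of eGFP+mAdu combined the second highest Lrp1 with the lowest Abcb1a and Cd2ap. A trend with transcript length, the mean log2 deviation of all genes per doubling of length, ran from -0.0247 in mouse 7 to 0.0204 in mouse 8, and Lrp1, Sorl1 and Abca1 are among the longest transcripts of the 10, with 14888, 10715 and 10262 bases. In mice 10 to 12, of mVEGF-C+mAdu, the trend was 0.0186, 0.00919 and 0.019. Apoe and Clu are the shortest transcripts of the 10, with 1408 and 1810 bases. The part of transcript length in the values of the long or the short genes was not tested. Mice 3, 6, 9 and 12 held the middle value of their group for 5 or 6 of the 10 genes each, and mouse 11 for 5.

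**Figure D4:**
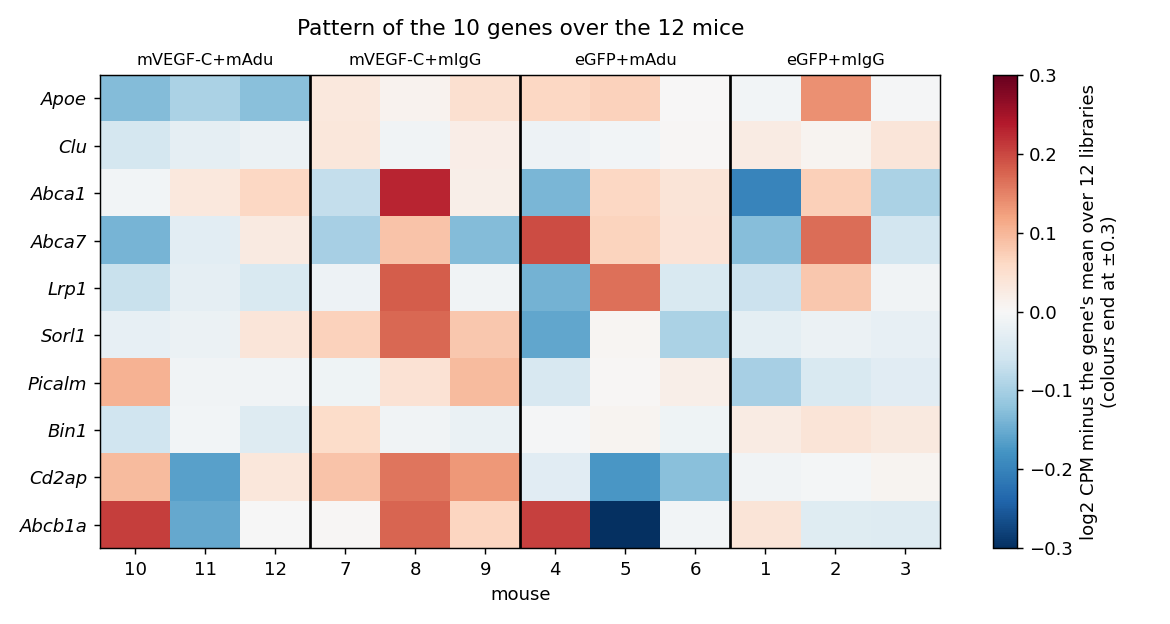
Deviation of each gene (rows) in each mouse (columns, by group) from its mean over 12 libraries, in log2 CPM. The Apoe row is blue in all 3 mVEGF-C+mAdu mice, and mouse 8 is red for Abca1, Lrp1, Sorl1, Cd2ap and Abcb1a.

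Markers of the cells that make Apoe were measured beside it. The summed level of 10 astrocyte markers was 4320 to 4572 CPM in mVEGF-C+mAdu, 4396 to 4601 CPM under mVEGF-C+mIgG, 4216 to 4707 CPM in eGFP+mAdu and 4133 to 4669 CPM in eGFP+mIgG, and these ranges overlapped. Single astrocyte markers went both ways, with log2 values from -0.34 (Gfap) to 0.19 (Fgfr3) against eGFP+mIgG and from -0.27 (Gfap) to 0.26 (Fgfr3) against mVEGF-C+mIgG. Of the 10, 4 had an unadjusted p under 0.05 against eGFP+mIgG (20.4% of all genes) and 6 against mVEGF-C+mIgG (12.7%), where limma-voom called 7 (8.29%) and DESeq2 0 (0.847%). Of the 10, 1 passed against eGFP+mIgG (2.18% of all genes). This was Aldh1l1, a folate enzyme of astrocytes, at 50.6 ± 0.772 CPM in mVEGF-C+mAdu and 58.4 ± 3.23 CPM in eGFP+mIgG (adjusted p = 0.0457, edgeR quasi-likelihood F test), a log2 change of -0.21. Over the omissions of single mice the change stayed between -0.25 and -0.17, and without mouse 1, 3, 6, 9, 10, 11 or 12 the adjusted p missed the threshold (0.0682 to 0.206). Without mice 3, 6, 9 and 12 together the change was -0.19 (adjusted p = 0.563 by the same edgeR test). With library totals in place of TMM the change was -0.13 (adjusted p = 0.149 by the same edgeR test). The 10 microglial markers summed to 457 to 465 CPM in mVEGF-C+mAdu, below 508 to 552 CPM under mVEGF-C+mIgG, 478 to 560 CPM in eGFP+mAdu and 478 to 524 CPM in eGFP+mIgG. Of the 10 microglial markers, 1 passed against eGFP+mIgG (2.18% of all genes), 3 had an unadjusted p under 0.05 (20.4%), and 9 log2 values were below 0. DESeq2 called 1 (2.93%) and limma-voom 3 (17.9%). Against mVEGF-C+mIgG, 6 had an unadjusted p under 0.05 (12.7%), and DESeq2 called 2 (0.847%) and limma-voom 6 (8.29%). The marker that passed against eGFP+mIgG was C1qa, a complement subunit, at 49.1 ± 2.75 CPM in mVEGF-C+mAdu and 66.3 ± 4.70 CPM in eGFP+mIgG (SD, n = 3). The log2 change of C1qa against eGFP+mIgG was -0.43 (adjusted p = 0.042 by the same edgeR test) and stayed between -0.48 and -0.38 over the omissions of single mice. Its adjusted p missed the threshold without mouse 1, 2, 3, 6, 9, 10, 11 or 12 (0.0646 to 0.162) and without mice 3, 6, 9 and 12 together (0.56).

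The markers of plaque-associated microglia were the lowest in the doubly treated mice as well. Their mean log2 deviation was -0.42, -0.48 and -0.41 in mVEGF-C+mAdu, -0.19, 0.60 and 0.29 in mVEGF-C+mIgG, -0.26, 0.33 and 0.04 in eGFP+mAdu, and 0.03, 0.31 and 0.17 in eGFP+mIgG. Cst7, a cystatin of such microglia, had 0.212 ± 0.026 CPM in mVEGF-C+mAdu, 1.23 ± 0.787 CPM under mVEGF-C+mIgG, 0.923 ± 0.504 CPM in eGFP+mAdu and 1.12 ± 0.356 CPM in eGFP+mIgG. These levels rest on few reads, far under the median of the 10 markers (8.92 to 15.8 CPM over the libraries). Cst7 was picked after its values were seen. Of the plaque-associated list 0 of 10 passed against eGFP+mIgG by edgeR (2.18% of all genes), 7 had an unadjusted p under 0.05 (20.4%), and DESeq2 called 3 (2.93%) and limma-voom 7 (17.9%), with 9 of 10 log2 values below 0. Markers of the brain's borders differed between groups too, though not in the order of Apoe throughout. The 4 measured border-associated macrophage markers summed to 19.8 to 20.5 CPM in mVEGF-C+mAdu, 21.4 to 23.4 CPM under mVEGF-C+mIgG, 19.7 to 28.1 CPM in eGFP+mAdu and 26.5 to 28.7 CPM in eGFP+mIgG. Their mean log2 deviation was -0.20 to -0.10 in mVEGF-C+mAdu, -0.40 to -0.20 in mVEGF-C+mIgG, -0.36 to 0.40 in eGFP+mAdu and 0.34 to 0.52 in eGFP+mIgG. The 7 choroid plexus markers summed to 44.4 to 46.1 CPM in mVEGF-C+mAdu, 53.5 to 59.4 CPM under mVEGF-C+mIgG, 76.2 to 92.6 CPM in eGFP+mAdu and 61.1 to 105.7 CPM in eGFP+mIgG. Of these lists Stab1, a scavenger receptor of macrophages, fell to 13.5 ± 0.830 CPM in mVEGF-C+mAdu, against 17.6 ± 0.646 CPM in eGFP+mIgG (adjusted p = 0.038, edgeR quasi-likelihood F test), with a log2 change of -0.39. Over the omissions of single mice this stayed between -0.42 and -0.34. The adjusted p missed the threshold without mouse 1, 3, 6, 9, 10, 11 or 12 (0.0548 to 0.163) and without mice 3, 6, 9 and 12 together (0.56). Ttr, the thyroid hormone carrier of choroid plexus, fell to 16.6 ± 2.24 CPM, against 51.6 ± 21.9 CPM in the same groups (adjusted p = 0.00895 by the same edgeR test). That call was lost without mouse 12 (0.0502) and without mice 3, 6, 9 and 12 together (0.56). Ttr was low in mVEGF-C+mIgG as well. Over both antibodies it averaged 20.9 ± 5.95 CPM under mVEGF-C and 53.9 ± 15.2 CPM under eGFP (SD, n = 6 each). The adjusted p of that average was 0.00319 by the same edgeR test, and 0.816 without mice 3, 6, 9 and 12. All 10 log2 values of the meningeal fibroblast markers were below 0 in mVEGF-C+mAdu against eGFP+mIgG, with a median of -0.41. There 0 of the 10 passed by edgeR (2.18% of all genes) and 4 had an unadjusted p under 0.05 (20.4%). DESeq2 called 1 (2.93%) and limma-voom 4 (17.9%). The mean log2 deviation of these markers was -0.30 to -0.17 in mVEGF-C+mAdu, -0.24 to -0.02 in mVEGF-C+mIgG, -0.25 to 0.50 in eGFP+mAdu and 0.12 to 0.29 in eGFP+mIgG. Over the 12 libraries the Pearson r of Apoe with the mean log2 deviation of a list was 0.725 for microglia and 0.678 for plaque-associated microglia. It was 0.689 for choroid plexus, 0.459 for meningeal fibroblasts, 0.253 for border-associated macrophages and 0.345 for astrocytes. The part of microglial or border tissue content in the Apoe values was not tested.

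**Figure D5:**
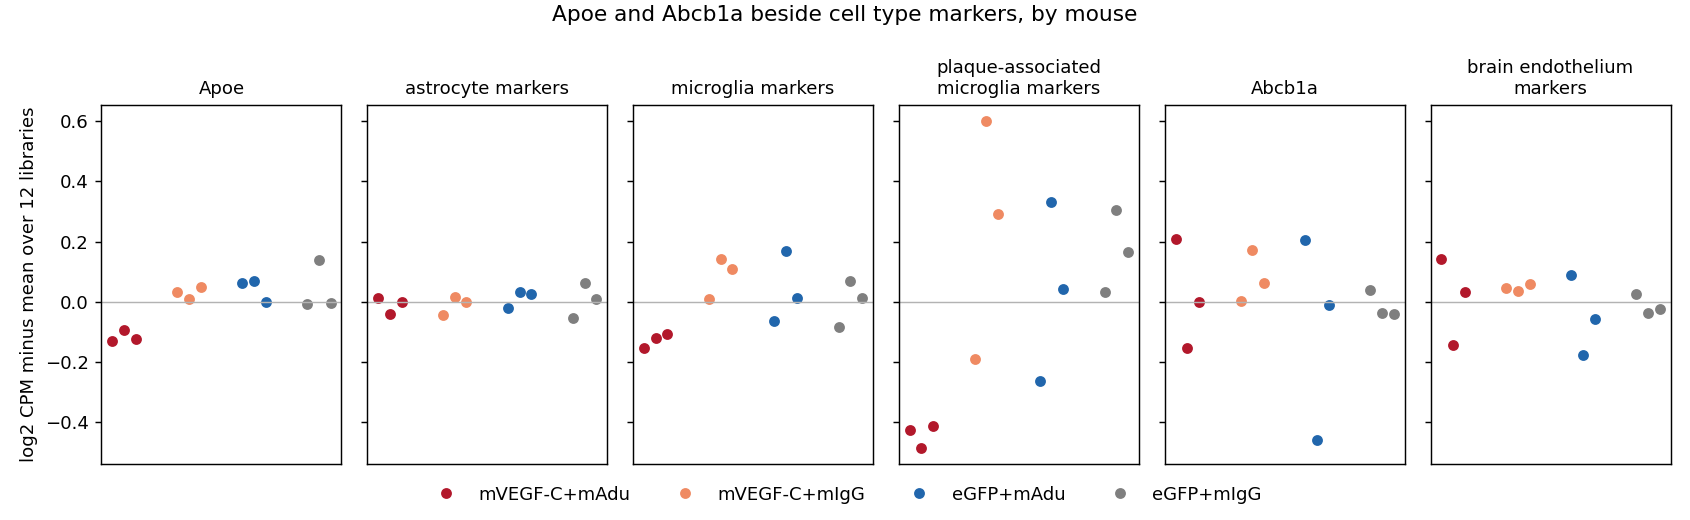
Apoe, Abcb1a and 4 marker lists in each mouse, as log2 CPM minus the mean over 12 libraries (for lists, the mean over their 10 genes). Mice 10 to 12, of mVEGF-C+mAdu, are lowest for Apoe and for both microglial lists, the mean over astrocyte markers joins genes that went both ways, and Abcb1a is lowest in mouse 5, as are the endothelial markers.

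Of 13 further lipoprotein and cholesterol genes, 3 passed in mVEGF-C+mAdu against eGFP+mIgG (2.18% of all genes), all lower. Apod, an apolipoprotein of oligodendrocytes and perivascular cells, averaged 163 ± 3.38 CPM in mVEGF-C+mAdu and 269.6 ± 30.2 CPM in eGFP+mIgG, a log2 change of -0.73 (SE 0.149, adjusted p = 0.0262, edgeR quasi-likelihood F test). Pltp, which moves phospholipid between lipoproteins, averaged 27.5 ± 1.34 CPM and 33.7 ± 0.903 CPM in the same groups (log2 -0.29, SE 0.061, adjusted p = 0.0262). Npc2, which carries cholesterol out of lysosomes, averaged 50.6 ± 0.708 CPM in mVEGF-C+mAdu and 56.9 ± 0.965 CPM in eGFP+mIgG (log2 -0.17, SE 0.040, adjusted p = 0.0413). The median log2 value of the list was -0.11, beside 0.00 over all genes, and the other 10 did not pass. DESeq2 called 2 of the 13 (2.93% of all genes) and limma-voom 4 (17.9%). Over the omissions of single mice the log2 changes moved little, from -0.81 to -0.65 for Apod, from -0.33 to -0.26 for Pltp and from -0.18 to -0.15 for Npc2, but the adjusted p often missed the threshold with fewer libraries. By the same edgeR test it did so for Apod without mouse 1, 3, 10, 11 or 12 (adjusted p from 0.0506 to 0.119), for Pltp without mouse 1, 3, 10 or 12 (0.0915 to 0.122), for Npc2 without mouse 1, 2, 3, 6, 9, 10, 11 or 12 (0.057 to 0.14), and for all 3 without mice 3, 6, 9 and 12 together (0.56). With library totals in place of TMM, Npc2 was at -0.09 (adjusted p = 0.263 by the same edgeR test), and the DESeq2 Wald test gave it an adjusted p of 0.053. Averaged over vectors, Apod was also lower under mAdu (189 ± 40.1 CPM) than under mIgG (270.4 ± 46.5 CPM; SD, n = 6 each; log2 -0.53, adjusted p = 0.0383, edgeR quasi-likelihood F test), which lay between -0.62 and -0.44 over the omissions of single mice, with the adjusted p over the threshold without mouse 1, 2, 3, 4, 6, 9, 10, 11 or 12 (0.0533 to 0.13). Without mice 3, 6, 9 and 12 together this change was -0.51 (adjusted p = 0.835 by the same edgeR test).

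The 4 lists of LXR, LDL receptor family, sorting receptor and other risk genes had 0 passing in each of the 8 contrasts by edgeR, and the counts by other means are given for mVEGF-C+mAdu against eGFP+mIgG. Of 9 LXR receptors and target regulators, 1 had an unadjusted p under 0.05 (20.4% of all genes), and DESeq2 called 0 (2.93%) and limma-voom 1 (17.9%). The LXR beta gene Nr1h2 averaged 24.3 ± 2.21 CPM in mVEGF-C+mAdu and 26.5 ± 1.73 CPM in eGFP+mIgG. Of 14 further genes of the LDL receptor family, 0 had an unadjusted p under 0.05 and neither DESeq2 nor limma-voom made a call, and the median log2 value was -0.04. Of 12 VPS10 sorting receptors and retromer genes, the kin and partners of Sorl1, 3 had an unadjusted p under 0.05, and DESeq2 called 0 and limma-voom 3, with 11 of 12 log2 values above 0 and a median of 0.06. Of 22 other Alzheimer risk genes, 11 had an unadjusted p under 0.05 (20.4% of all genes), and DESeq2 called 1 (2.93%) and limma-voom 8 (17.9%). Their median was -0.13, beside 0.00 over all genes, and the lowest value was that of Ms4a6d, a microglial gene, at -0.68. Trem2, the lipid receptor of microglia that binds apolipoprotein E, had 11.5 ± 0.769 CPM in mVEGF-C+mAdu and 14.6 ± 1.12 CPM in eGFP+mIgG.

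Of 20 further clathrin endocytosis genes, 1 passed in mVEGF-C+mAdu against eGFP+mIgG (2.18% of all genes). Eps15, a clathrin coat scaffold, averaged 444 ± 19.6 CPM in mVEGF-C+mAdu and 397 ± 5.75 CPM in eGFP+mIgG (log2 0.16, SE 0.036, adjusted p = 0.0328, edgeR quasi-likelihood F test). Over the omissions of single mice the change stayed between 0.13 and 0.19, and the adjusted p missed the threshold without mouse 1, 2, 3, 6, 9, 10 or 12 (adjusted p from 0.0504 to 0.157), without mice 5 and 6 (0.0551) and without mice 3, 6, 9 and 12 (0.56) by the same edgeR test. Of 11 further blood-brain barrier transport genes, 1 passed in the same comparison (2.18% of all genes). This was Slco1c1, a thyroid hormone carrier, with 37.6 ± 1.84 CPM in mVEGF-C+mAdu and 30.2 ± 1.11 CPM in eGFP+mIgG (log2 0.32, SE 0.067, adjusted p = 0.03, edgeR quasi-likelihood F test). Its change stayed between 0.29 and 0.35 over the same omissions, with the adjusted p over the threshold without mouse 1, 2, 3, 10 or 12 (0.0517 to 0.125) and without mice 3, 6, 9 and 12 (0.56). Abcb1b, the paralog of Abcb1a, had 5.10 ± 0.334 CPM in mVEGF-C+mAdu and 5.94 ± 0.392 CPM in eGFP+mIgG, with no call.

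Genes whose pattern over the 12 libraries was most like that of the leading genes were found by Pearson correlation of log2 CPM, as a description. For Apoe they were Zfp787 (r = 0.918), Ltc4s (0.903) and Cenpb (0.891), and over the 8 libraries without mice 3, 6, 9 and 12 the same pairs gave 0.968, 0.900 and 0.912. For Clu they were 2010300C02Rik (0.922), Tnxb (0.919) and Il11ra1 (0.903). For Sorl1 they were Fryl (0.956), Mobp (0.924) and an identifier without a symbol, and for Cd2ap Cacng6 (0.897), Zfp58 (0.893) and Cap2 (0.883). Mobp, a myelin gene, was higher in mVEGF-C+mIgG (639.8 ± 25.3 CPM) than in eGFP+mIgG (470.3 ± 12.8 CPM; adjusted p = 0.0117, edgeR quasi-likelihood F test), and Sorl1 was highest in the same 3 mVEGF-C+mIgG mice. The log2 change of Mobp was 0.44 and lay between 0.42 and 0.48 over the omissions of single mice. Its adjusted p was over the threshold without mouse 1, 3 or 9 (0.0643 to 0.109). Without mice 3, 6, 9 and 12 together the change was also 0.44 and did not pass by the same edgeR test. The 10 oligodendrocyte markers summed to 4751, 4798 and 4706 CPM in mVEGF-C+mAdu, 4801, 5842 and 5422 CPM under mVEGF-C+mIgG, 4021, 4977 and 4434 CPM in eGFP+mAdu, and 4373, 5010 and 4724 CPM in eGFP+mIgG. The highest sum was in mouse 8, where Sorl1 was also highest, while mice 2 and 5 had higher sums than mouse 7 and lower Sorl1. Sorl1 and the mean log2 deviation of these markers had r = 0.885 over the 12 libraries. Over the 8 without mice 3, 6, 9 and 12 they had r = 0.894. Each was the highest r of Sorl1 with any of the 13 marker lists. The part of oligodendrocytes in the Sorl1 values was not tested. All points share their libraries. The best of 14881 genes, or for Sorl1 of 13 marker lists, was taken in each case, so these are the highest values of their sets.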

How the data were processed

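RNA was sequenced from 12 mice in 4 groups of 3. Per the labels' protocols, total RNA was isolated with a PicoPure kit and linearly amplified before library preparation. Per the submitters' processing notes, the tools were STAR, featureCounts (Subread), edgeR, Trim Galore and FastQC, on the mm10 build. The sources used here give no tool versions, annotation, strand or multi-mapping settings. The authors deposited whole-number read counts per gene, without normalization, and the 14881 genes were already reduced to those with at least 147 reads in total.

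A single edgeR 4.0.16 model (R 4.3.3) held all 12 libraries, scaled by TMM, with a mean for each group, and its quasi-likelihood F test gave 8 contrasts. P-values were adjusted by Benjamini-Hochberg over all genes, with a threshold of 0.05. The SE of a log2 change is its size divided by the square root of F. CPM are TMM-scaled counts per 1000000 reads, and RPKM divides them by exon length from GENCODE on GRCm38. edgeR's filter on low counts removed 0 genes. Alternatives used DESeq2 1.42.0, limma 3.58.1 (voom with quality weights), other scalings and filters, and fits without single libraries. The pipeline was tested on simulated data with 200 changed genes. The 10 genes and all lists were chosen with earlier results of these data known. Genes of the pathway lists were named where they passed, up to 4 per list and contrast. Passing marker genes were named where their list stands beside a result, and the rest are given by their range or by their counts. Ms4a6d is the end of such a range, and Nr1h2, Trem2, Cst7 and Abcb1b were picked after their values were seen. The depth of 23213612 to 29295266 reads gives a counting error of 0.486% to 0.559% for Apoe and of 4.12% to 5.35% for Abcb1a in a single library.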

Additional observations from a re-analysis of the deposited data

How the results depend on the processing

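No paired analysis was possible because the sample numbers 1 to 12 are each used once.

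Order of contrasts below: mAdu against mIgG within eGFP, the same within mVEGF-C, mVEGF-C against eGFP within mIgG, the same within mAdu, mVEGF-C+mAdu against eGFP+mIgG, interaction, mAdu average, mVEGF-C average. The main counts of genes passing were 5, 31, 6, 7, 324, 2, 85 and 58. With library totals only they were 144, 57, 18, 3, 1774, 8, 300 and 169, with DESeq2's Wald test 40, 126, 20, 104, 436, 8, 217 and 148, and with limma-voom 507, 1234, 937, 970, 2660, 220, 1681 and 1789. Without libraries 3, 6, 9 and 12 they were 2, 0, 2, 0, 2, 0, 1 and 0. The stricter filter gave 14 within mVEGF-C. Only the groups compared gave 6, 2, 62 and 610 for the second to the fifth. Without libraries 5 and 6, where mouse 4 alone stands for eGFP+mAdu and is assumed to vary like the other groups, the last 5 contrasts gave 49 (within mAdu), 192, 0, 43 and 122 where the count moved by over 1.5 times. Single omissions gave 4 to 35, 2 to 138, 1 to 52, 0 to 110, 12 to 594, 0 to 36, 9 to 172 and 4 to 253.

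Of the 10 genes, 1 passed in mVEGF-C+mAdu against eGFP+mIgG with library totals (Picalm), and 1 (Apoe) with the stricter filter, DESeq2, limma-voom or only these groups. DESeq2 and limma-voom called 1 each within mAdu, and limma-voom 1 within mVEGF-C, 2 within mIgG, 1 in the interaction and 2 in each average. Single omissions gave 0 to 1 in mVEGF-C+mAdu against eGFP+mIgG and in the mVEGF-C average, and 0 in the other 6.

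Small log2 changes turned sign, to the values in parentheses, and the cause was not tested. Library totals moved the median of all genes by 0.0967, -0.011, 0.089, -0.0186, 0.078, -0.108, 0.0428 and 0.0352. Library totals turned Clu (0.067), Lrp1 (0.092), Sorl1 (0.041), Bin1 (0.064) and Abcb1a (0.049) within eGFP, Apoe (0.078), Clu (0.080), Abca7 (0.049) and Bin1 (0.069) within mIgG, Clu (0.022), Abca7 (0.037), Lrp1 (0.030), Bin1 (0.014) and Cd2ap (0.074) in mVEGF-C+mAdu against eGFP+mIgG, Clu (0.0049) and Bin1 (0.0046) in the mAdu average, Clu (0.017) and Bin1 (0.0094) in the mVEGF-C average. The stricter filter turned Lrp1 (-0.00095) in the mVEGF-C average. Limma-voom turned Abca1 (0.015) and Abca7 (0.088) within mVEGF-C, Apoe (0.028) within mIgG, Abca7 (0.025) and Cd2ap (0.0035) in mVEGF-C+mAdu against eGFP+mIgG, Bin1 (0.0086) in the interaction, Picalm (-0.0081) in the mAdu average, Lrp1 (-0.0030) in the mVEGF-C average. Leaving out libraries 3, 6, 9 and 12 turned Lrp1 (0.014) within eGFP, Picalm (0.032) within mVEGF-C, Abcb1a (0.030) in the interaction, Abca1 (-0.022) in the mAdu average. Leaving out libraries 5 and 6 turned Abca1 (-0.064) and Abcb1a (0.22) within eGFP, Lrp1 (0.096) and Abcb1a (-0.18) within mAdu, Abca1 (0.030), Lrp1 (0.044) and Sorl1 (0.022) in the interaction, Abca1 (-0.049), Picalm (-0.0016) and Abcb1a (0.081) in the mAdu average, Abcb1a (-0.043) in the mVEGF-C average.

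Where a single omission turned a sign, the log2 values ran as follows. Within eGFP, the ranges were Apoe -0.021 to 0.056, Lrp1 -0.097 to 0.060 and Abcb1a -0.21 to 0.12. Within mVEGF-C, the ranges were Abca1 -0.097 to 0.056, Abca7 -0.043 to 0.069, Picalm -0.053 to 0.014 and Abcb1a -0.16 to 0.026. Within mIgG, the ranges were Apoe -0.035 to 0.042, Clu -0.019 to 0.0026, Abca7 -0.11 to 0.050 and Lrp1 -0.015 to 0.097. Within mAdu, the ranges were Abca1 -0.021 to 0.077, Lrp1 -0.11 to 0.048, Picalm -0.00064 to 0.058 and Abcb1a -0.079 to 0.25. In mVEGF-C+mAdu against eGFP+mIgG, the ranges were Abca7 -0.10 to 0.046, Cd2ap -0.058 to 0.068 and Abcb1a -0.064 to 0.12. In the interaction, the ranges were Bin1 -0.025 to 0.013, Cd2ap -0.081 to 0.046 and Abcb1a -0.17 to 0.15. In the mAdu average, the ranges were Abca1 -0.017 to 0.059, Picalm -0.0015 to 0.032 and Abcb1a -0.13 to 0.031. In the mVEGF-C average, the ranges were Lrp1 -0.030 to 0.050.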
